A study of Homo sapiens with 4 samples.

Results

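The genes described here are 10 leukocyte surface, adaptor and signaling genes: PTPRC, SPN, CD84, CD48, CD226, TYROBP, FCER1G, LAPTM5, CORO1A and BTK. They were given by symbol and found as 10 of the 58365 rows of the deposited expression table, with 1 row each. They were chosen by their FPKM values in the SB and DMSO libraries described here, which earlier work on these data had shown to be higher with SB, so the differences between treated and control libraries given for them are a description and carry no test. RNA-seq was performed on H1, an established line of human embryonic stem cells, collected at day 8 of a stepwise hematopoietic differentiation. All cultures received activinA (40 ng/ml) and BMP4 (50 ng/ml) for 2 days and then VEGF (40 ng/ml) and bFGF (50 ng/ml) to the end. The last 3 days of culture were run without (DMSO, 2 libraries) or with SB431542 (SB, 2 libraries), an inhibitor of the type I receptors for TGFβ. The study describes a collection of CD31+ cells for sequencing, which the sample labels do not mention. All libraries come from 1 cell line, and nothing in the labels says that the replicates were separate differentiations, so the spread between them may be technical.

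In embryonic blood formation, hematopoietic cells bud from specialised endothelium, lose endothelial features and take on the surface and signaling proteins of white blood cells. In cultures of pluripotent stem cells CD43, the product of SPN, is known to mark early hematopoietic progenitors, and CD45, the product of PTPRC, is known to appear later on most of their progeny. Activating receptors of leukocytes pass their signal through small adaptors with a tyrosine motif called ITAM, among them TYROBP (DAP12) and FCER1G. The motif is phosphorylated by SRC family kinases, which CD45 keeps active, and it recruits SYK; Tec family kinases such as BTK act further downstream.

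The values are FPKM, fragments scaled to transcript length and to the mapped fragments of the library. The depth was read back from the low values of genes with a single annotated transcript, which are close to whole multiples of what 1 fragment is worth. In units of 1e6 fragments it came to 24.25 and 23.25 with DMSO and to 19.45 and 25.95 with SB, and 94.1% to 94.6% of the low values then lay within 0.05 of a whole fragment. Replicate number separated the libraries about as much as treatment did: Pearson's r of log2(FPKM + 1) across 14909 genes, which are not independent replicates, was 0.956 and 0.961 within the groups and 0.960 and 0.964 between DMSO and SB of the same number. For this reason, differences within a replicate number accompany the pooled ones. The 10 endothelial markers, PECAM1 (CD31) among them, were all present, and their summed level was 1846 and 1626 FPKM with DMSO and 1798 and 1613 FPKM with SB.

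Promoters were looked at because the 10 genes were higher together. RefSeq windows (GRCh38.p14) were found for 8 of them; SPN and CD84 had none in the table used. The letters AGGAAG, the core that ETS factors such as PU.1 bind, stood on either strand in the 250 bases upstream of the annotated start in 6 of the 8 genes, against 28.7% of the 34796 promoters searched. The letters TGTGGT (RUNX) were found in 1 of the 8 genes, against 11% of all promoters. The motif of GATA factors, AGATAA, was found in 1, against 9.21%, and that of SMAD factors, CAGAC, in 2, against 38.0%. Copies of a motif may overlap each other, and a match is only a match of letters. The search did not leave out exons: 250 of the 250 bases of CD226 and 223 of those of BTK lay in annotated exons, and both genes are among the 6. Each of the 8 genes entered with 1 window, the farthest upstream, while the promoters searched include all distinct windows of a gene. The shares are thus not like for like. The stretches shown were chosen because they set a pair of abundant genes (TYROBP and LAPTM5) beside the pair that was barely detected (PTPRC and CD48). Only bases outside annotated exons are printed, 5′ to 3′ on the strand of the gene, with AGGAAG or its reverse complement in capitals.
TYROBP: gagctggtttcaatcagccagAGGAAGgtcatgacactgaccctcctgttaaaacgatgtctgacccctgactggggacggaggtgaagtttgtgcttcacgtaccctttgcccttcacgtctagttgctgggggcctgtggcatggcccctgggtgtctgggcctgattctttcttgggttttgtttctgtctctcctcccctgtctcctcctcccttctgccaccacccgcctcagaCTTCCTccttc
LAPTM5: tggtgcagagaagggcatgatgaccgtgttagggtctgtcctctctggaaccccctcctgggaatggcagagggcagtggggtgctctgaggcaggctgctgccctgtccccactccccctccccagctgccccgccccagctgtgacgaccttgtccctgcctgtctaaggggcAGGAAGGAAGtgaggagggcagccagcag
PTPRC: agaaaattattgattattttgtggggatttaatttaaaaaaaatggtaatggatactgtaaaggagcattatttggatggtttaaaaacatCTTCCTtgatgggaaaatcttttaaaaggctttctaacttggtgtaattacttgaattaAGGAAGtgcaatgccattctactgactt
CD48: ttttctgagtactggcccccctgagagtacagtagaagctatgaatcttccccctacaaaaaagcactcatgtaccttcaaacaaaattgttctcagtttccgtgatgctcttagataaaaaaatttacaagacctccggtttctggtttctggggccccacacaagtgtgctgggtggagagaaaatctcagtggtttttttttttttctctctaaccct
They lie at chr19:35908296-35908545 (minus strand), chr1:30757821-30758024 (minus), chr1:198638790-198638967 (plus) and chr1:160711852-160712072 (minus). The TYROBP stretch holds the letters once on each strand, and LAPTM5 holds them as an overlapping pair. PTPRC holds them as well, although its transcript was close to absent, while CD48 holds none.

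PTPRC (ENSG00000081237.18, chromosome 1, 198638671 to 198757283) encodes CD45, the receptor phosphatase found on nearly all nucleated blood cells. Its listed level was 0.00948 and 0.0294 FPKM with DMSO, and 0.202 and 0.182 FPKM with SB. With the longest coding transcript (5390 nt) these values stand for at most 1.18 and 3.49 fragments with DMSO and 20.02 and 24.2 fragments with SB. The SB libraries thus lay above both DMSO libraries, with a mean 9.87 times theirs. From the summed fragments, at most 5 with DMSO and 44 with SB, the ratio was 9.22. With so few DMSO fragments the size of this ratio is uncertain. PTPRC, the pan-leukocyte marker among the 10 genes, thus stayed under 1 FPKM in each library.

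SPN (ENSG00000197471.11, chromosome 16, 29662979 to 29670876) encodes CD43, a long sialomucin of the blood cell surface. It stood at 31.6 and 36.2 FPKM with DMSO and at 52.9 and 66.8 FPKM with SB, without overlap. The mean was 33.9 ± 3.24 FPKM against 59.8 ± 9.80 FPKM (SD, n = 2 each), a ratio of 1.77 and a difference of 0.80 in log2(FPKM + 1) (SE 0.20 from the fit over all genes). SPN thus exceeded PTPRC by a factor of 3331 and 1230 in the DMSO libraries and of 262 and 366 in the SB libraries. A protein-coding gene on the same strand, AC009086.2, shares 38 nt of exon with SPN, and it was listed at practically 0 in both libraries of number 1 but at 38.8 (DMSO) and 46.2 FPKM (SB) in those of number 2. Its part in the SPN values was not tested. Within number 1, where the neighbour took next to nothing, SPN was 1.67 times higher with SB. With both genes added, a sum chosen after the data were seen, the ratio over all libraries was 1.56. The groups overlapped in this sum, with 74.98 FPKM in DMSO replicate 2 and 52.9 FPKM in SB replicate 1. Within number 2 the sum was 1.51 times higher with SB.

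CD84 and CD48 are members of the SLAM family, receptors that bind their own kind or each other on neighbouring blood cells; CD48 is held by a lipid anchor, and CD84 has a signaling tail. CD84 (ENSG00000066294.14, chromosome 1, 160541095 to 160579516) stood at 1.37 and 1.49 FPKM with DMSO and at 6.83 and 8.79 FPKM with SB. Its ratio of 5.46 was the largest among the genes that reached 1 FPKM, with a log2 difference of 1.85 (SE 0.20). CD48 (ENSG00000117091.9, chromosome 1, 160678746 to 160711851) was listed at 0.0967 and 0.0507 FPKM with DMSO and at 0.751 and 0.731 FPKM with SB. These are at most 3.56 and 1.78 fragments against 22.04 and 28.6, for a ratio of 10.7 in summed fragments, whose size is uncertain for the same reason as that of PTPRC. An antisense gene, AL121985.1, shares 976 nt with exons of CD48, and was listed at 0.0560 and 0.0590 FPKM with DMSO and at 0 in both SB libraries. Counting by strand is not stated in the sources used here, so reads of this pair cannot be told apart, and at these levels the DMSO values of CD48 are uncertain.

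CD226 (ENSG00000150637.8, chromosome 18, 69831158 to 69961803) encodes DNAM-1, an adhesion receptor of lymphocytes, monocytes and platelets that binds PVR and NECTIN2. It stood at 13.4 and 17.3 FPKM with DMSO and at 31.2 and 32.4 FPKM with SB, a ratio of 2.07 and a log2 difference of 1.01 (SE 0.19). The SB libraries differed from each other by 1.25 FPKM, and the gap to the higher DMSO library was 13.8 FPKM. DOK6, on the other strand, shares 112 nt of exon with CD226 and stood between 0.594 and 3.61 FPKM in the 4 libraries.

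**Figure D1:**
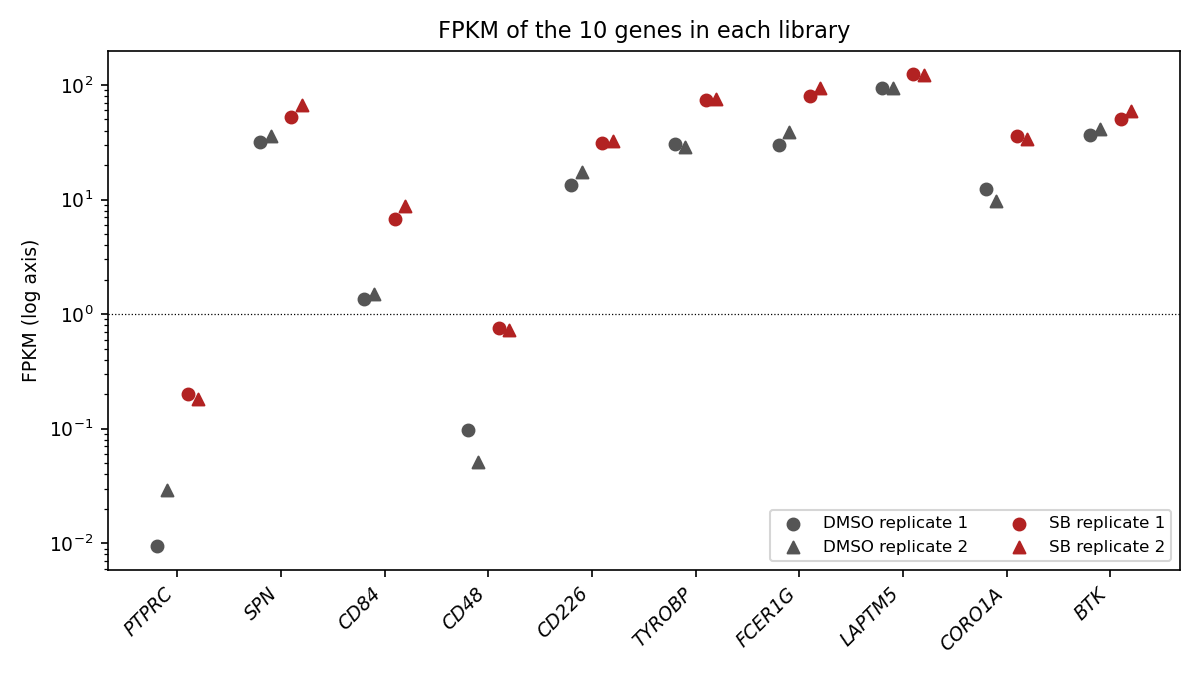
FPKM of the 10 genes on a log axis, 1 point per library, grey for DMSO and red for SB, circles for replicate 1 and triangles for replicate 2; the dotted line marks 1 FPKM. Both SB points lie above both DMSO points for each gene, and PTPRC and CD48 stay under the line in all 4 libraries.

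The ITAM adaptors were among the more abundant of the 10 genes. TYROBP (ENSG00000011600.11, chromosome 19, 35904401 to 35908295) encodes DAP12, the partner of TREM and of several natural killer cell receptors. It stood at 30.6 and 28.5 FPKM with DMSO and at 74.3 and 75.2 FPKM with SB. The replicates differed by at most 2.09 FPKM, while the groups were 43.6 FPKM apart at their nearest, a ratio of 2.53 and a log2 difference of 1.31 (SE 0.16). FCER1G (ENSG00000158869.10, chromosome 1, 161215234 to 161220699) encodes the gamma chain shared by IgE and IgG receptors and by the platelet collagen receptor. It stood at 29.7 and 38.7 FPKM with DMSO and at 79.8 and 94.1 FPKM with SB, a ratio of 2.54 and a log2 difference of 1.33 (SE 0.21). TYROBP was at 1.03 and 0.737 times FCER1G with DMSO and at 0.930 and 0.799 times with SB, so the ratio between both adaptors overlapped between the groups.

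LAPTM5 (ENSG00000162511.7, chromosome 1, 30732469 to 30757820) encodes a lysosomal membrane protein of blood cells that lowers antigen receptor levels. It was the most abundant of the 10 genes in each library, at 94.3 and 94.97 FPKM with DMSO and at 123.9 and 122.4 FPKM with SB. Its ratio of 1.30 was the smallest (log2 difference 0.38, SE 0.15), but the replicates lay within 0.649 and 1.48 FPKM of each other and the gap between the groups was 27.4 FPKM. CORO1A (ENSG00000102879.15, chromosome 16, 30182827 to 30189076) encodes coronin 1A, an actin-binding protein of leukocytes. It stood at 12.5 and 9.70 FPKM with DMSO and at 35.6 and 33.7 FPKM with SB, a ratio of 3.13 and a log2 difference of 1.57 (SE 0.19). Its antisense neighbour AC012645.3 shares 541 nt of exon and stayed between 0.333 and 0.816 FPKM.

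BTK (ENSG00000010671.15, chromosome X, 101349447 to 101390796) encodes a Tec family kinase of B cells, myeloid cells and platelets. It stood at 36.3 and 41.7 FPKM with DMSO and at 50.1 and 58.8 FPKM with SB, a ratio of 1.39 and a log2 difference of 0.47 (SE 0.18). It was the gene in which the groups were closest relative to their spread, with a gap of 8.39 FPKM against 8.68 FPKM between the SB libraries.

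In all, 10 of the 10 genes had both SB libraries above both DMSO libraries, against 21.5% of the 14909 genes tested and 16.6% of the 29447 rows above 0 in at least 1 library. The choice of the genes fixes this count, and nothing is read from it. In 9 of the 10 the gap between the groups was wider than the distance between the replicates of either group, with BTK as the exception. The share of all genes with such a gap was not computed, so nothing is read from this count either. The median ratio over the 10 genes was 2.53, within a range of 1.30 to 10.1, and the median difference in log2(FPKM + 1) was 0.90 (0.94 within number 1 and 0.87 within number 2), beside 0.04 over all tested genes. The log2 scale with a pseudocount of 1 shrinks low genes, so PTPRC (0.23) and CD48 (0.70) appear small on it. In the fit over all genes, 8 of the 10 passed the filter of a mean of 1 FPKM in a group, and PTPRC and CD48 did not. Of the 8, 0 had a limma adjusted p under 0.05, where 0.134% of all tested genes did (0.0268% higher with SB), and 7 had an unadjusted p under 0.05, where 4.8% of all tested genes did so in this direction. A difference of at least 1 in log2(FPKM + 1) was seen in 5 of the 8, beside 1.56% of all tested genes that were higher and 2.16% that were lower by as much. In a fit blocked on the replicate number, 5.5% of the genes tested were called higher and 4.99% lower, and 8 of the 8 genes were called higher. These counts come from the contrast that chose the genes.

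**Figure D2:**
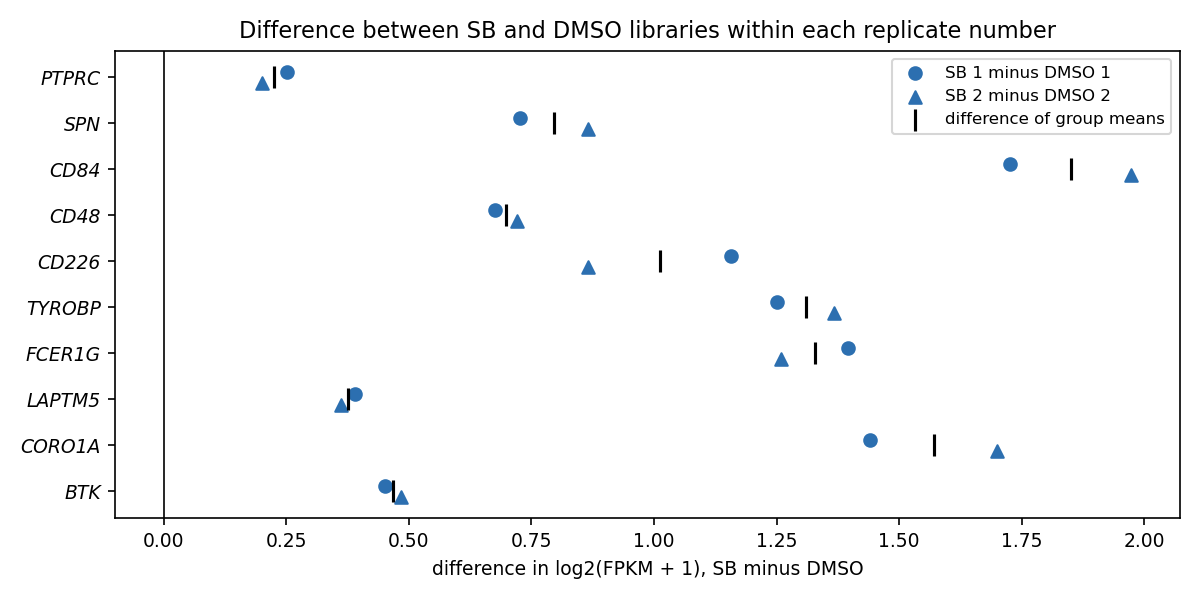
Difference in log2(FPKM + 1) between SB and DMSO within replicate 1 (circles) and within replicate 2 (triangles), with the difference of the group means as a bar, for each of the 10 genes. All points lie right of 0, from 0.20 for PTPRC to 1.97 for CD84, both within number 2.

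The order of the levels differed between the groups. With DMSO it ran from LAPTM5 (94.6 FPKM) over BTK (39.0), FCER1G (34.2), SPN (33.9), TYROBP (29.6), CD226 (15.4), CORO1A (11.1) and CD84 (1.43) down to CD48 (0.0737) and PTPRC (0.0194), as group means. The ranges of BTK and FCER1G and those of FCER1G and SPN overlapped, so these neighbours were not separated. With SB the order was LAPTM5 (123.1 FPKM), FCER1G (87.0), TYROBP (74.7), SPN (59.8), BTK (54.4), CORO1A (34.7), CD226 (31.8), CD84 (7.81), CD48 (0.741) and PTPRC (0.192), and the ranges of SPN and BTK overlapped. Both ITAM adaptors thus stood below or level with BTK under DMSO and above it under SB.

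The genes outside the 10 with the most similar course over the 4 libraries, by Euclidean distance between centred log2(FPKM + 1) values and the median course of the 10 genes, were GABRE (distance 0.0393), PPP1R14C (0.0520), ITGA8 (0.0807), SASH3 (0.0928) and SPINK2 (0.0955). SASH3, an adaptor of lymphoid cells, stood at 2.19 and 2.43 FPKM with DMSO and at 5.27 and 5.92 FPKM with SB. SPINK2, a protease inhibitor known from blood progenitors, stood at 0.242 and 0.449 FPKM with DMSO and at 1.59 and 1.60 FPKM with SB. It passed the filter only through its SB values. With only 4 libraries many genes share such a course, and no more is read from it.

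To place the 10 genes in their pathways, 9 lists with 171 further genes were examined, of which 111 passed the filter. Of these, 0 had a limma adjusted p under 0.05, with the smallest at 0.0948. The call depended on the fit: blocked on the replicate number, a pairing that the labels do not establish, 47 of the 111 passed. Of the 111, 12 reached the filter's mean of 1 FPKM only with SB and 2 only with DMSO. Such genes had to differ, so the counts and list medians that follow are descriptions of the genes that passed. At an unadjusted p under 0.05, 36 of the 111 were higher with SB and 8 were lower, where 4.8% and 5.16% of all tested genes were. The groups did not overlap in 60 genes that were higher and 19 that were lower with SB, beside 21.5% and 16% of all tested genes.

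The surroundings of the SLAM receptors and of the ITAM adaptors were sparse. Of the 9 other SLAM receptors and SAP adaptors only CD244 and SLAMF9 passed the filter, SLAMF9 only through its SB values. Their log2 differences were 0.48 and 0.47 (limma adjusted p 0.609 and 0.681). SH2D1A, which encodes the adaptor SAP, stayed at or under 0.0235 FPKM, and SH2D1B was listed at 0 throughout. Of 30 genes listed as other ITAM proteins and partner receptors 7 passed the filter, 3 of them (TREM2, TREML1 and CD79A) only through their SB values. The median log2 difference of the 7 was 0.81, but it was 0.055 over the whole list without a filter and 0.35 for genes at 5 FPKM or more in 2 libraries. At an unadjusted p under 0.05, 3 of the 7 were higher with SB, TREM2 and TREML1 among them. TREM2, a lipid receptor that signals through TYROBP, stood at 1.12 and 0.827 FPKM with DMSO and at 3.75 and 4.48 FPKM with SB (log2 difference 1.37, limma adjusted p 0.141). TREML1, a receptor of platelet granules, stood at 1.07 and 0.704 FPKM against 3.89 and 4.13 FPKM (1.41, limma adjusted p 0.136). That it uses either adaptor or holds an ITAM is not shown here, although it enters the counts and the median of this list. FCGR2A, an IgG receptor with an ITAM of its own, differed by 0.81 (limma adjusted p 0.483). The most abundant of this list, PILRB and CD79B, differed by 0.07 and 0.35 (limma adjusted p 0.959 and 0.719). Under the filter stood FCER1A and MS4A2, the other chains of the IgE receptor, at 0.509 FPKM or less in each library, while FCGR1A, FCAR, TREM1, LILRA2 and NCR2 were listed at 0 in all 4. The adaptors were thus at 28.5 to 94.1 FPKM in libraries where many of their receptors were near or at 0.

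Of 34 kinases, adaptors and enzymes that work with these receptors, 28 passed the filter, 2 of them (FYB1 and PIK3AP1) only through their SB values. With these 2 included, 14 had an unadjusted p under 0.05, each higher with SB (median log2 difference 0.55). SYK, the kinase that docks on ITAMs, stood at 1.03 and 1.09 FPKM with DMSO and at 4.78 and 5.18 FPKM with SB (log2 difference 1.54, SE 0.19, limma adjusted p 0.0948). FYB1, an adaptor of T cells and platelets, stood at 0.578 and 0.976 FPKM against 4.84 and 6.34 FPKM (1.89, SE 0.24, limma adjusted p 0.0969). PTPN6, the phosphatase SHP-1 that counteracts ITAM signals, differed by 1.29 (limma adjusted p 0.151). The most abundant of the list were FYN and GTF2I, a BTK substrate, with log2 differences of -0.22 and -0.19 (limma adjusted p 0.907 and 0.809). Among other Tec family kinases, chosen after their values were seen, TEC stood at 5.50 and 7.92 FPKM with DMSO and at 12.1 and 15.2 FPKM with SB, TXK differed by 1.07 (limma adjusted p 0.329) and BMX was at most at 0.287 FPKM.

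Coronins and leukocyte actin regulators showed a similar spread. Of 24 genes 22 passed the filter, 2 of them (DOCK8 and ARHGAP15) only through their SB values. At an unadjusted p under 0.05, 10 were higher, ARHGAP15 among them, and 2 were lower, with a median log2 difference of 0.49. RAC2, the blood cell Rac GTPase, stood at 23.9 and 26.1 FPKM with DMSO and at 65.3 and 57.9 FPKM with SB (1.27, limma adjusted p 0.105). ARHGAP30 and NCKAP1L (HEM1, a subunit of the WAVE complex in blood cells) differed by 1.35 and 1.05 (limma adjusted p 0.106 and 0.162). ARHGDIB and ARPC1B were the most abundant of the list and differed by 0.50 and 0.14 (limma adjusted p 0.377 and 0.952). Among the coronins, chosen after their values were seen, CORO1B and CORO1C differed by 0.37 and 0.06 and CORO6 by -0.89 (limma adjusted p 0.762, 0.961 and 0.217), beside 1.57 for CORO1A.

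Of 30 other leukocyte surface molecules 19 passed the filter, 3 of them (CD52, CD300A and LAIR1) only through their SB values. At an unadjusted p under 0.05, 8 were higher, CD52 and CD300A among them, and 1 was lower. The median log2 difference of the 19 was 0.73, but it was 0.15 over the whole list without a filter and 0.42 without SB replicate 1. CD52 stood at 0.631 and 0.471 FPKM with DMSO and at 3.62 and 8.78 FPKM with SB (2.12, limma adjusted p 0.20), with the SB libraries far apart. CD4 and CD33, both found on early myeloid cells, differed by 1.17 and 1.11 (limma adjusted p 0.137 and 0.20). CD82 and CD44 were the most abundant and differed by 0.65 and -0.25 (limma adjusted p 0.628 and 0.826).

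The families of PTPRC, CD226, SPN and LAPTM5 had list medians between -0.27 and 0.19. Of 19 other receptor-type phosphatases 12 passed the filter, with 0 higher and 3 lower at an unadjusted p under 0.05 and a median log2 difference of -0.27. These were PTPRD (-0.70), PTPRF (-0.77) and PTPRS (-0.80), with limma adjusted p of 0.273, 0.499 and 0.367, and PTPRM, the most abundant, differed by -0.37 (limma adjusted p 0.572). Of 12 nectins and competing receptors 8 passed the filter (median -0.14), PVRIG only through its SB values and CADM3 only through its DMSO values. NECTIN2, a ligand of CD226, was abundant at 209.2 and 149.98 FPKM with DMSO and at 202.3 and 144.9 FPKM with SB (log2 difference -0.05, limma adjusted p 0.987), and CADM4, the next in level, differed by -0.23 (0.890). PVR, the other ligand, differed by -0.25 (limma adjusted p 0.754), CADM1 by -0.53 (0.436) and CADM3 by -0.37 (0.719). The competing receptors TIGIT and CD96 were at most at 0.0334 FPKM. The 7 other sialomucins had a median of -0.07. Of these, CD34 stood at 75.5 and 89.9 FPKM with DMSO and at 73.9 and 83.6 FPKM with SB (limma adjusted p 0.966). CD164 differed by 0.43 (limma adjusted p 0.665), PODXL by -0.42 (0.493) and PDPN by -0.20 (0.914). The 6 lysosomal genes had a median of 0.19. LAPTM4B, the closest abundant relative of LAPTM5, differed by 0.00 (limma adjusted p 0.998), CD63 by 0.32 (0.603), LAMP2 by 0.24 (0.847) and CD68, a lysosomal protein of macrophages, by 0.75 (0.354).

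**Figure D3:**
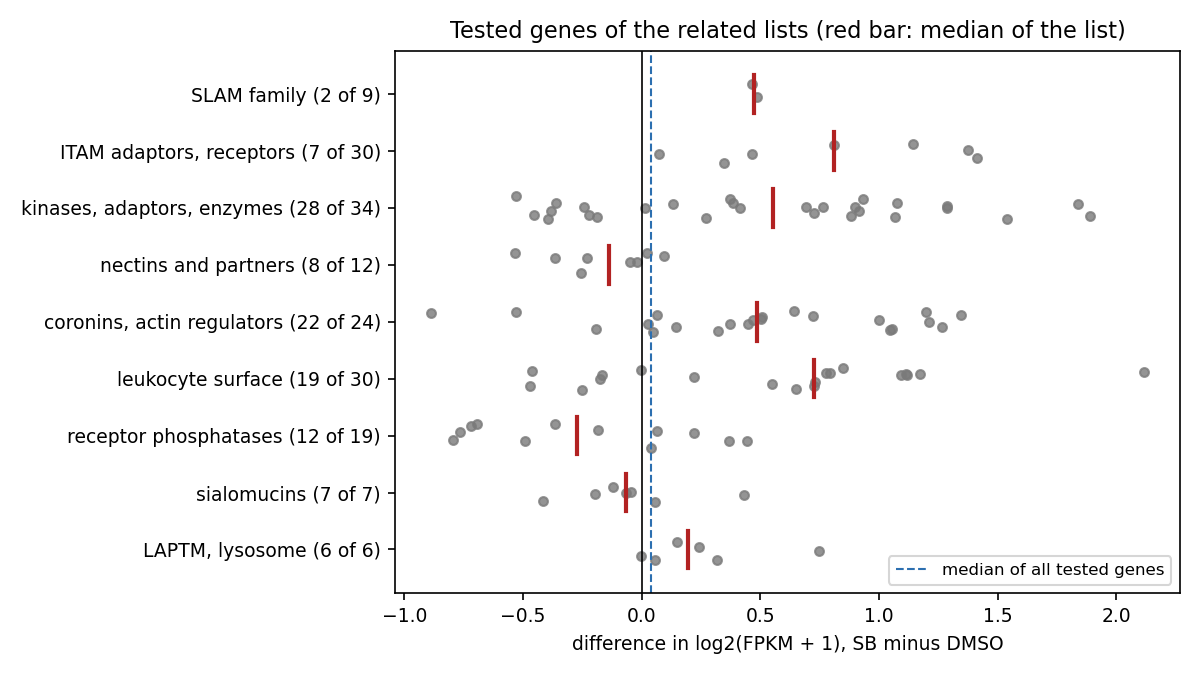
Difference in log2(FPKM + 1) between SB and DMSO for each tested gene of the 9 related lists, 1 grey point per gene, with the number tested of the number listed; red bars are list medians and the dashed line is the median of all tested genes (0.04). List medians run from -0.27 for receptor phosphatases to 0.81 for ITAM adaptors and receptors, and the latter is 0.055 without a filter on low values.

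Summed markers of megakaryocytes, monocytes and macrophages were higher along with the 10 genes. So were the sums for granulocytes, mast cells, T cells, B cells and pluripotent cells, each made up mostly of a few genes named below. In bulk libraries a larger share of a cell type and more RNA per cell cannot be told apart. The 11 megakaryocyte markers summed to 318.7 and 308.3 FPKM with DMSO and to 770.7 and 859.6 FPKM with SB, and 11 of the 11 were higher in both SB libraries, as were 16.6% of all rows above 0 in at least 1 library. PF4 (platelet factor 4), the list's highest SB value, stood at 32.6 and 49.7 FPKM with DMSO and at 198.8 and 322.0 FPKM with SB. The 14 monocyte and macrophage markers summed to 115.1 and 106.8 FPKM against 254.8 and 239.8 FPKM. Of the 14, 9 were higher in both SB libraries (16.6% of all rows above 0), 4 overlapped, and ITGAM was lower, at 0.429 and 0.610 FPKM with DMSO and 0.0458 and 0.0521 FPKM with SB. SPI1, which encodes PU.1, stood at 55.4 and 26.2 FPKM with DMSO and at 113.4 and 63.9 FPKM with SB, and AIF1 at 26.7 and 41.1 FPKM against 80.6 and 110.7 FPKM. The macrophage markers differed in level. MRC1 stood at 16.5 and 22.9 FPKM with DMSO and at 24.1 and 30.1 FPKM with SB, and LYZ at 5.39 and 7.87 FPKM against 8.66 and 10.2 FPKM. CD14, FCGR3A and C1QA to C1QC were at most at 0.169 FPKM. The 9 granulocyte markers summed to 9.86 and 10.6 FPKM against 16.8 and 15.4 FPKM, with ELANE and S100A8 listed at 0 in all libraries. Most of this sum came from CSF3R, with means of 7.16 FPKM (DMSO) and 13.4 FPKM (SB). Of the 9, 3 were higher in both SB libraries, 4 overlapped, and AZU1 and S100A9 were lower. The 8 mast cell markers summed to 19.9 and 21.2 FPKM against 28.8 and 26.9 FPKM, with TPSB2 and CMA1 at 0. Most of this sum came from HDC (means 13.8 and 19.6 FPKM) and KIT (6.09 and 7.44 FPKM). Of the 8, 3 were higher in both SB libraries and 5 overlapped.

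Most lymphoid defining markers were under 1 FPKM. CD3E, CD3G, CD2 and CD5 were at most at 0.0506 FPKM, and MS4A1 and PAX5 at most at 0.0766 FPKM, while TRBC2 and VPREB1 were listed at 0. CD3D stood at 0.0701 and 0.300 FPKM with DMSO and at 0.706 and 0.534 FPKM with SB, and CD79A at 0.684 and 0.351 FPKM against 1.23 and 0.943 FPKM, both without overlap. TRAC was lower with SB, at 0.586 and 0.556 FPKM against 0.368 and 0.389 FPKM. The T cell list summed to 6.99 and 4.29 FPKM with DMSO and to 15.3 and 7.80 FPKM with SB, most of it from CD7. The B cell list summed to 17.995 and 17.3 FPKM against 26.6 and 20.1 FPKM, most of it from CD79B, and the NK list to between 1.34 and 3.47 FPKM in each library. The erythroid list summed to 1715 and 2069 FPKM with DMSO and to 1392 and 1710 FPKM with SB, so the groups were barely apart. Of its 11 genes, 6 were lower in both SB libraries (16% of all tested genes) and 5 overlapped, with HBG2, the most abundant, among the 5. Endoderm and liver markers summed to 165.6 and 183.9 FPKM against 14.5 and 13.9 FPKM, mesenchymal markers to 417.4 and 384.6 FPKM against 205.8 and 211.5 FPKM, cardiac markers to 57.6 and 36.0 FPKM against 11.4 and 6.51 FPKM, and pluripotency markers to 86.2 and 89.4 FPKM against 119.8 and 122.5 FPKM. Most of the pluripotency sum came from LIN28A and DNMT3B. Of its 6 genes 4 were higher in both SB libraries (16.6% of all rows above 0), and NANOG overlapped. TDGF1 was lower, at 0.804 and 1.31 FPKM with DMSO and at 0.224 and 0.298 FPKM with SB. NANOG and SOX2 were at most at 0.121 FPKM. The part of these lineages in the values of the 10 genes was not tested.

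**Figure D4:**
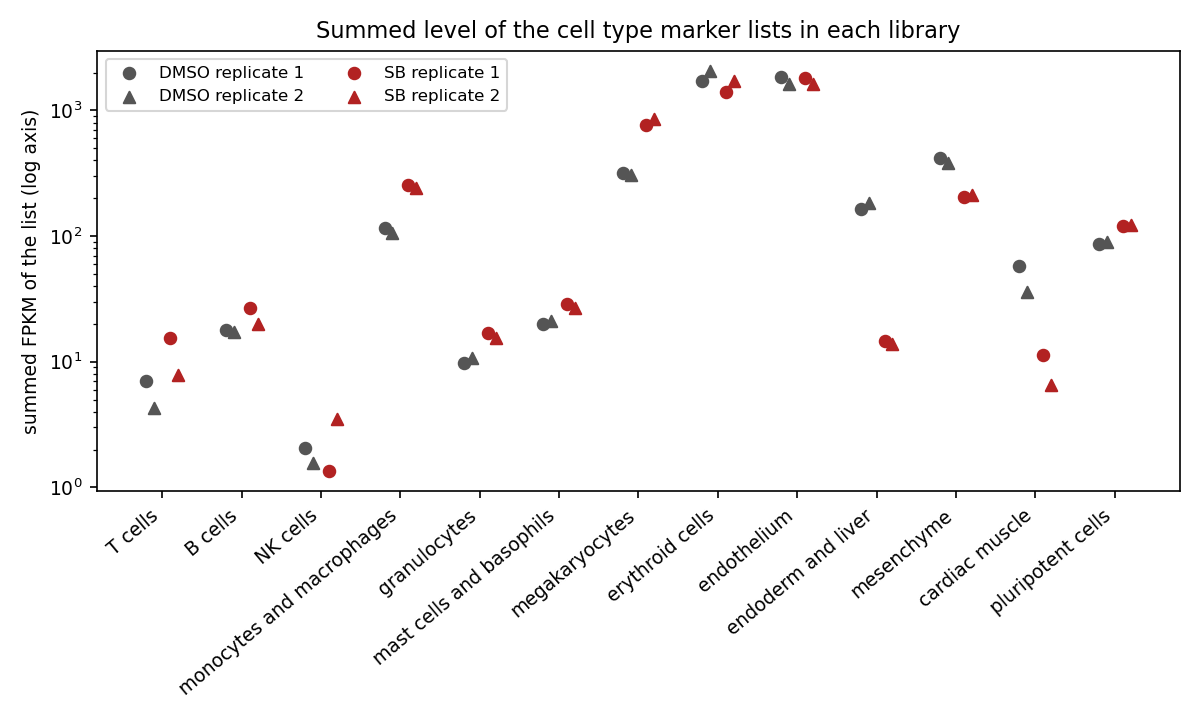
Summed FPKM of 13 cell type marker lists on a log axis, 1 point per library, grey for DMSO and red for SB, circles for replicate 1 and triangles for replicate 2. The megakaryocyte and the monocyte and macrophage sums are higher in both SB libraries, as are the T cell, B cell, granulocyte, mast cell and pluripotency sums. The endoderm, mesenchyme and cardiac sums are lower, and the endothelial and NK sums overlap. The erythroid sums are lower by a narrow margin, at 1710 FPKM for the higher SB library and 1715 FPKM for the lower DMSO library.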

How the data were processed

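The 4 RNA-seq libraries, 2 per group, were assigned by their sample titles. The authors deposited FPKM values, 1 column per library. The processing notes of the submitters name BWA, Bowtie, RSEM and hg19 without roles. The loci of the rows are on GRCh38, however: 95.5% of the rows carry an identifier of GENCODE release 29, and 99.8% of these have its position. Starts are given here counted from 1. No scaling between libraries is stated.

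Values were taken as log2(FPKM + 1). Genes with a mean of at least 1 FPKM in a group were fitted with limma 3.58.1 in R 4.3.3 (empirical Bayes with a trend, group as the only term), two-sided, adjusted by Benjamini-Hochberg over all tested genes at a threshold of 0.05. The fit was tested on simulated data with 200 changed genes. With 2 libraries a side, exact permutation reaches no p under 0.333, so none was run. The members and lists were chosen with earlier results of these data known. Named are all 10 members and, per list, genes past the threshold, the 3 with the smallest unadjusted p and the 2 with the highest level; for the marker lists, sums with the genes that decide them. Fragments per member are FPKM times depth times the longest coding transcript less 275 to 285 nt, the length offset that fitted the low values. A search with blastn 2.17.0 (95% identity over 200 nt) found no copies of the members other than the antisense partners of CD48 and CORO1A. Alternatives were another scaling, pseudocount or filter, the replicate number as a block, and the removal of each library.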

Additional observations from a re-analysis of the deposited data

How the results depend on the processing

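With 2 libraries per group, calls across all genes depended on the fit. At an adjusted p under 0.05, 4 genes were higher and 16 lower with SB; without filter there were 0 and 0 (2739 at an unadjusted p under 0.05), quantile normalization gave 9 higher, and leaving out 1 library gave 0 to 7 higher and 0 to 12 lower, with 0 of the 20 calls shared without DMSO replicate 1. Differences of at least 1 in log2 (232 higher, 322 lower) numbered 490 and 680 with a pseudocount of 0.1, 115 and 165 at 5 FPKM or more in 2 libraries, and 303 to 392 and 365 to 609 with 1 library left out; the highest counts came without SB replicate 2 (higher) and without DMSO replicate 2 (lower).

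With the replicate number as a block, 820 genes were higher and 744 lower, among them 47 of the pathway lists and 8 of the 8 tested members. The labels do not say that a number marks a shared culture, so these pairs are names only; the deviations of same-numbered libraries correlated at 0.528.

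The median of the 10 members (0.90) was 1.31 with a pseudocount of 0.1 and 0.78 to 1.04 with 1 library left out, and each member kept its direction in the alternatives run. With quantile normalization no median of 10 was formed, since PTPRC and CD48 were not in its matrix. List medians with a pseudocount of 0.1 were 0.90 (SLAM), 0.67 (kinases) and 0.77 (surface); without filter 0.017 (SLAM), 0.055 (ITAM), 0.38 (kinases) and 0.15 (surface); and at 5 FPKM or more 0.35 (ITAM), 0.40 (kinases), 0.65 (surface) and -0.43 (receptor phosphatases). With 1 library left out they ran from -0.32 to -0.0067 (nectins), 0.42 to 0.84 (surface), -0.068 to 0.020 (sialomucins, positive without SB replicate 1) and 0.092 to 0.28 (lysosomal). The causes were not tested, other than that a filter sets which genes enter a median.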
